A study of Mus musculus with 13 samples.

Results

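The contractile program of smooth muscle was followed through 39 genes on 13 arrays of mouse rectum. The genes were taken from a list of names, and each was read from the transcript cluster (the array's set of probes for 1 transcript) that names it alone, taking the cluster with the highest mean over all arrays where several did. All 39 listed genes had such a cluster, out of 19938 genes measured that way. The list was not chosen by a threshold on these values, but it was drawn up with earlier results of these arrays known.

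Smooth muscle cells shorten when calcium entering through membrane channels, or released from internal stores, activates the kinase that phosphorylates the myosin regulatory light chain. Thin filament proteins tune the contact of actin with myosin, and dense bodies, intermediate filaments and membrane plaques carry the force to the cell border. The coactivator myocardin, bound to serum response factor (SRF) on CArG boxes in DNA, turns on many of these genes. In the rectum the program belongs to the muscularis mucosae below the crypts, the outer muscle coat and the walls of vessels, and parts of it are shared by myofibroblasts and pericytes.

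Each array held RNA of 1 tissue piece, hybridised to the Affymetrix Mouse Gene 1.0 ST design, and the pieces formed 3 groups. Adenocarcinoma (5 arrays, numbered 1, 2, 3, 4 and 6, from mice aged 53, 60, 60, 64 and 80 weeks, 2 female and 3 male) and inflamed mucosa (4 arrays, numbered 1 to 4, aged 53, 60, 60 and 64 weeks, 1 female and 3 male) were dissected from cryosections of the rectal prolapses of α6fl/fl Villin-Cre mice. These mice lack the integrin gene Itga6 in intestinal epithelium, the tissue in which the Villin promoter drives Cre, so the muscle itself is not a target of the deletion. Normal mucosa (4 arrays, numbered 1, 2, 4 and 6, aged 53, 60, 64 and 70 weeks, 2 female and 2 male) was scraped from the rectum of animals called controls in 1 label and in the design text, while the genotype label gives all 13 samples the floxed Villin-Cre genotype. No treatment is given for any group. The comparisons ask what sets inflamed mucosa and tumour apart from normal mucosa, and tumour apart from the mucosa beside it.

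The arrays had medians of 6.41 to 6.59 (log2) and correlated with each other at 0.943 to 0.990. Itga6 read 10.75 to 11.16 in normal mucosa, 10.90 to 11.20 in inflamed mucosa and 11.44 to 11.62 in adenocarcinoma. The sources used here do not say which exons the deletion removes, and this level does not check the genotype. Transcripts absent by sex (Xist on the 8 male arrays and 3 Y-linked genes on the 5 female arrays) read up to 5.57, and a mean at or below that value is not shown to be expression. Normal mucosa 6 stood apart from the other normal arrays in several muscle genes, and values without it are given where they matter. Dissection and scraping follow the groups, so the way of collecting tissue and the disease cannot be told apart in either comparison with normal mucosa. In bulk tissue, fewer cells of a type and less RNA per cell cannot be told apart either. The labels do not say whether tumour and inflamed pieces of 1 number came from 1 mouse, so p-values measure the spread between these samples only.

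Inflamed mucosa carried far more transcript of nearly the whole contractile program than normal mucosa. Of the 39 genes 36 were higher (limma, adjusted p below 0.05 over all genes, where 13.7% of genes were called higher), 1 was lower (13% of all genes) and 2 were not called. The 4 inflamed arrays lay above all 4 normal arrays in 35 members (12% of all genes) and below them in 1 (15.5% of all genes). The rise was at least 2-fold in 28 members (875 of all 19938 genes), and the median difference was 1.88 on the log2 scale, against -0.09 over all genes. Without normal mucosa 6 the median was 1.97.

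Adenocarcinoma carried more of part of the program than normal mucosa. Here 21 members were higher (16.4% of all genes), 1 was lower (19.4% of all genes) and 17 were not called. Tumour arrays lay above all normal arrays in 23 members (13% of all genes) and below them in 1 (13.9% of all genes). The median difference was 0.55, against -0.10 over all genes, and 15 members were at least 2-fold higher (864 of all 19938 genes). Both comparisons use the same 4 normal arrays, so their values are set side by side and are not independent of each other.

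Against the inflamed mucosa beside it, adenocarcinoma was lower in 31 members (4.21% of all genes) and higher in 0 (2.91% of all genes) by limma's adjusted p. At an unadjusted p below 0.05, 1 member (Pdlim7) was higher. The tumour arrays lay below all inflamed arrays in 33 members (6.51% of all genes) and above all of them in 0 (5.27% of all genes). The median difference was -1.16, against -0.01 over all genes, and 21 members were at least 2-fold lower (269 of all 19938 genes). In the 4 pairs of tumour and inflamed arrays with the same number, 37 of the 39 members were lower in the tumour of every pair, Ppp1r12b in 3 pairs and Pdlim7 in 1. The share of all genes lower in every pair was not counted, so this describes the members only.

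**Figure D1:**
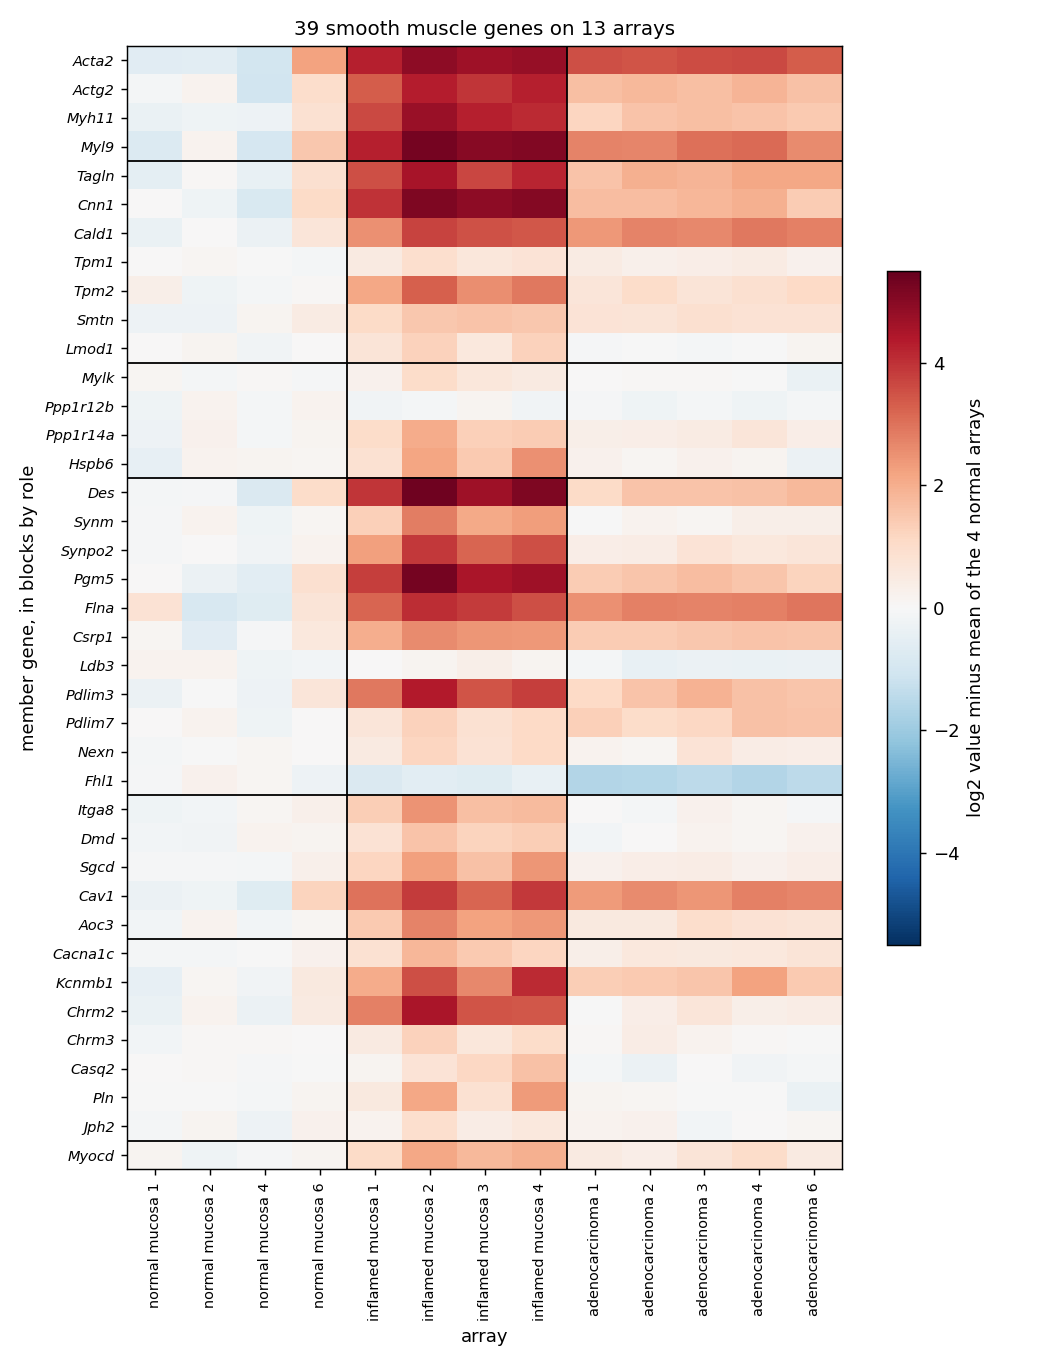
Log2 value of each of the 39 members (rows, in blocks by role from filaments at the top to the transcription factor at the bottom) minus its mean over the 4 normal arrays, for each array (columns; black lines separate normal mucosa, inflamed mucosa and adenocarcinoma). Red marks values above normal mucosa and blue values below it: the 4 inflamed arrays are red in nearly every row, the 5 tumour arrays are paler, and Fhl1 is the row of the clearest blue in both, with Ppp1r12b slightly below 0.

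The members' mean level showed the same order of groups with different spread inside them. It was 6.80, 6.89, 6.69 and 7.36 in normal mucosa 1, 2, 4 and 6, and 8.67, 9.63, 9.15 and 9.42 in inflamed mucosa 1 to 4. In adenocarcinoma it was 7.71, 7.79, 7.88, 7.90 and 7.80. The 3 groups did not overlap, and the tumours were by far the most alike. Inflamed mucosa 1 was the lowest inflamed array in 38 of 39 members and inflamed mucosa 2 the highest in 28, while normal mucosa 6 was the highest normal array in 22. The median SD of a member was 0.17 over tumour arrays, 0.46 over inflamed arrays and 0.24 over normal arrays, with the largest, 1.48, for Acta2 in normal mucosa.

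Promoter sequence was read for the members because SRF acts through a short motif that can be searched for. RefSeq promoter windows on GRCm38.p6 (250 bases before to 50 after the start) were matched for 33 of the 39 genes. The CArG box, 6 bases of A or T between CC and GG, was searched on both strands, and so was a CArG-like form with 1 G or C among the 6. The box was present in 4 of the 33 (12.1%), against 1.81% of 27025 genes with a window, and the CArG-like form in 7 of the 33 (21.2%), against 9.70%. A match describes letters in the window and does not show binding, and a window without a match says nothing of SRF. The 170 bases before the start are printed for the 4 genes with a box and for Acta2, which has a pair of CArG-like sites. They are shown because these 5 genes span the responses on the arrays, in inflamed mucosa, from large rises (Myl9 and Acta2) over a smaller one (Dmd) to no call (Ldb3) and a fall (Fhl1). Each is written 5′ to 3′ on the gene's own strand, with the sites in capitals.

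Acta2 (chr19:34255374-34255543, minus strand, CArG-like sites beginning 84 and 34 bases before the start): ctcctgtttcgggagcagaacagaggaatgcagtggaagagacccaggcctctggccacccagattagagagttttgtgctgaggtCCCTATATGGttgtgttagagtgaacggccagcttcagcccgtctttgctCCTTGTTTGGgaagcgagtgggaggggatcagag
Myl9 (chr2:156775294-156775463, plus strand, CArG box beginning 161 bases and CArG-like site 99 bases before the start): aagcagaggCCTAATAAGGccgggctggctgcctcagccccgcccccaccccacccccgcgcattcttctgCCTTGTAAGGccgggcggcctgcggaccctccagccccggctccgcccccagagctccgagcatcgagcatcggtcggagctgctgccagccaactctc
Dmd (chrX:82948700-82948869, plus strand, CArG box beginning 98 bases before the start): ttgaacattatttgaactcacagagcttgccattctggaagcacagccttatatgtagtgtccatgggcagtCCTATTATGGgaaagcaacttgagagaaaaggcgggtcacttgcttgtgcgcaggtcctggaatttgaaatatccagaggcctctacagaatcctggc
Ldb3 (chr14:34588682-34588851, minus strand, CArG box beginning 35 bases before the start shown, and 109 bases before another start): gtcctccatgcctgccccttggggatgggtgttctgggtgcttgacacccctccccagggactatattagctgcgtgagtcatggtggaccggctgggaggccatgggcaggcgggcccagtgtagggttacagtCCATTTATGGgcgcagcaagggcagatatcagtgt
Fhl1 (chrX:56779513-56779682, plus strand, CArG box beginning 102 bases before the start): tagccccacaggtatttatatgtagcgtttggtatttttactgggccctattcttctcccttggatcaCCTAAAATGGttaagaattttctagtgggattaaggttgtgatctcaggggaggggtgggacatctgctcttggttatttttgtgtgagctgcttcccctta

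The other CArG-like sites lay in the windows of Cacna1c, Hspb6, Jph2, Pdlim3 and Synm. Genes with a site stood among the members with large and with small differences, and the 1 member that went down has a box.

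Among the actin and myosin filaments, all 4 genes were higher in inflamed mucosa and in adenocarcinoma than in normal mucosa. Acta2, the smooth muscle α-actin that vessels and myofibroblasts also make, read 7.19, 7.26, 6.82 and 10.03 in normal mucosa 1, 2, 4 and 6. It read 12.12, 12.73, 12.47 and 12.62 in inflamed mucosa 1 to 4, and 11.35, 11.27, 11.42, 11.45 and 11.16 in adenocarcinoma 1, 2, 3, 4 and 6. Every tumour array lay below every inflamed array and above every normal array, with normal mucosa 6 nearest to them. The difference was 4.66 ± 0.50 (log2, SE) for inflamed and 3.5 ± 0.48 for tumour against normal mucosa, or 25.3-fold and 11.3-fold (limma, adjusted p = 2.15e-05 and 9.64e-05). Without normal mucosa 6 they were 42.0-fold and 18.9-fold. Tumour against inflamed mucosa gave -1.16 ± 0.48 and did not pass (limma, adjusted p = 0.188). It passed in the same comparison without normal mucosa 6 (limma, adjusted p = 0.000268) and with the tumour and inflamed arrays alone (limma, adjusted p = 0.000535).

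Actg2, the γ-actin of gut muscle, and Myh11, the myosin heavy chain of smooth muscle, lay further below inflamed mucosa in the tumours than Acta2 did. Actg2 read 7.39, 7.69, 6.42 and 8.46 in normal mucosa, 10.81, 11.80, 11.41 and 11.76 in inflamed mucosa and 9.16, 9.28, 9.15, 9.34 and 9.08 in adenocarcinoma. Myh11 read 6.70, 6.86, 6.81 and 7.93, then 10.69, 11.82, 11.36 and 11.18, then 8.25, 8.65, 8.72, 8.63 and 8.52, in the same order. In both genes the 3 groups were apart. Myh11 was 18.2-fold higher in inflamed and 2.79-fold higher in tumour than in normal mucosa, and 6.52-fold lower in tumour than in inflamed mucosa (limma, adjusted p = 5.38e-07, 0.000461 and 3.97e-05). For Actg2 the same folds were 15.5, 3.27 and 4.74 (limma, adjusted p = 2.55e-06, 0.000811 and 0.000758). Myl9, the regulatory light chain, had the largest inflamed rise of the 39 and the third largest of all genes, at 4.91 ± 0.41 (30.1-fold, limma, adjusted p = 2.91e-06). In tumour it was 7.09-fold above normal mucosa (limma, adjusted p = 0.000101) and 4.24-fold below inflamed mucosa (limma, adjusted p = 0.00517).

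**Figure D2:**
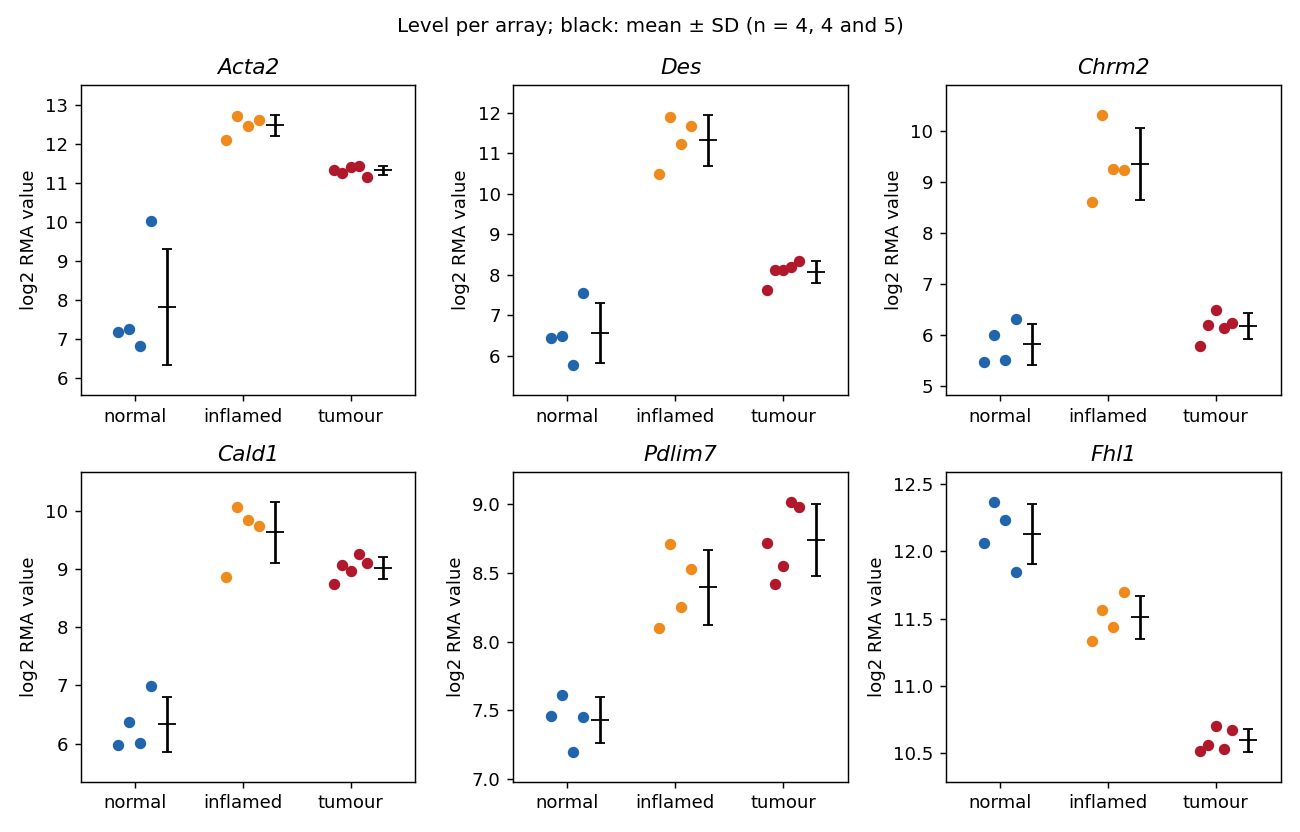
Log2 RMA value of 6 members on each array (points) with the group mean ± SD in black (n = 4 normal, 4 inflamed and 5 tumour arrays), each panel on its own scale. From inflamed mucosa to tumour the mean of Acta2 drops from 12.48 to 11.33, that of Des from 11.32 to 8.08 and that of Chrm2 from 9.35 to 6.17. Cald1 and Pdlim7 overlap between inflamed mucosa and tumour, and Fhl1 steps down from 12.13 over 11.51 to 10.59.

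The thin filament regulators were higher in inflamed mucosa in all 7 genes, and in adenocarcinoma in 6 of 7, against normal mucosa. Cnn1 (calponin, which binds actin and slows myosin cycling) read 7.0, 6.77, 6.15 and 8.07 in normal, 10.99, 12.12, 11.91 and 12.05 in inflamed and 8.70, 8.70, 8.83, 8.94 and 8.41 in tumour arrays. The tumours were close together and sat just above the highest normal array, far under the inflamed ones. Cnn1 was 27.3-fold higher in inflamed mucosa, 3.29-fold higher in tumour, and 8.29-fold lower in tumour than in inflamed mucosa (limma, adjusted p = 9.88e-07, 0.000915 and 9.62e-05). Tagln, an actin-binding protein of early muscle differentiation, followed at 15.7-fold, 3.82-fold and 4.10-fold lower (limma, adjusted p = 1.09e-06, 0.000107 and 0.000518). The tropomyosin Tpm2 was 6.6-fold higher in inflamed mucosa, 1.82-fold higher in tumour and 3.62-fold lower between them (limma, adjusted p = 1.66e-06, 0.00407 and 0.00011).

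Cald1 (caldesmon, made as a muscle form and as a form of other cells) overlapped between inflamed mucosa and tumour. It read 5.97, 6.37, 6.01 and 6.99 in normal mucosa, 8.87, 10.07, 9.84 and 9.74 in inflamed mucosa and 8.74, 9.06, 8.96, 9.25 and 9.10 in adenocarcinoma. Inflamed mucosa 1 lay among the tumours and the other inflamed arrays above them. Cald1 was 9.80-fold higher in inflamed and 6.44-fold higher in tumour than in normal mucosa (limma, adjusted p = 1.67e-06 and 2.21e-06). Tumour against inflamed mucosa differed by -0.61 ± 0.24 and did not pass (limma, adjusted p = 0.164), except without inflamed mucosa 1 (-0.86, limma, adjusted p = 0.0216). Tpm1, a tropomyosin of many cells, was bright in all groups at means of 10.35, 11.04 and 10.71. It was 1.62-fold higher in inflamed mucosa and 1.28-fold higher in tumour than in normal mucosa (limma, adjusted p = 0.000257 and 0.011). The fall of Tpm1 between inflamed mucosa and tumour sat at the threshold (-0.34 ± 0.10, limma, adjusted p = 0.0505), and passed without inflamed mucosa 1 (limma, adjusted p = 0.0235) and with array weights, cyclic loess, the dimmest genes left out or a random replicate block (0.0223 to 0.0474). Smtn, the cytoskeletal protein smoothelin, was 2.64-fold and 1.72-fold higher (limma, adjusted p = 2.45e-05 and 0.00102). Its fall of 0.62 in tumour (limma, adjusted p = 0.0207) missed the threshold without adenocarcinoma 2 or inflamed mucosa 2, 3 or 4 (limma, adjusted p = 0.0526, 0.0708, 0.0663 and 0.0657). Lmod1, a nucleator of actin filaments, was 1.94-fold higher in inflamed mucosa, -0.01 ± 0.14 from normal mucosa in tumour, and 1.96-fold lower in tumour than in inflamed mucosa (limma, adjusted p = 0.000381, 0.961 and 0.00102).

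The genes that control myosin phosphorylation had a median difference from normal mucosa of 1.02 in inflamed mucosa and 0.02 in tumour, against 4.42 and 2.27 for the filament genes. In inflamed mucosa 3 of 4 were higher, and in adenocarcinoma 0 of 4 passed against normal mucosa, where 1 (Ppp1r14a) had an unadjusted p below 0.05. Mylk, the myosin light chain kinase, was 1.51-fold higher in inflamed mucosa (limma, adjusted p = 0.00826) and -0.05 ± 0.14 from normal mucosa in tumour. Ppp1r14a, an inhibitor of myosin phosphatase, was 2.71-fold higher in inflamed mucosa (limma, adjusted p = 7.64e-05). In tumour it differed from normal mucosa by 0.44 ± 0.17 (limma, adjusted p = 0.0594), which passed without inflamed mucosa 1 or 2 (limma, adjusted p = 0.0413 and 0.015). That difference also passed with the replicate block and with the tumour and normal arrays alone (limma, adjusted p = 0.0426 and 0.0185). Hspb6, a small heat shock protein phosphorylated when muscle relaxes, read 8.36, 9.70, 8.94 and 10.01 in inflamed mucosa against 7.08 to 7.69 in normal mucosa and 7.20 to 7.76 in tumour. It was 3.33-fold higher in inflamed mucosa (limma, adjusted p = 0.000696) and its tumour arrays overlapped those of normal mucosa. Mylk, Ppp1r14a and Hspb6 were lower in tumour than in inflamed mucosa by 1.56-fold, 2.00-fold and 3.13-fold (limma, adjusted p = 0.0111, 0.0031 and 0.00253).

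Ppp1r12b, a targeting subunit of myosin phosphatase, was not called in any comparison (-0.08, -0.15 and -0.08 for inflamed and tumour against normal mucosa and tumour against inflamed mucosa). The array carries 7 clusters for Ppp1r12b alone, and the brightest one was used. Another of its clusters differed by 0.76 between inflamed and normal mucosa and by -0.78 between tumour and inflamed mucosa, so clusters of this gene disagree. The sources used here do not say which transcript each cluster reads. The pair of Jph2 clusters gave like values.

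Intermediate filament and dense body genes held the widest range of responses. Of these 11 genes, 9 were higher and 1 lower in inflamed mucosa, and 6 were higher and 1 lower in adenocarcinoma, against normal mucosa. Des (desmin, the intermediate filament of muscle) read 6.44, 6.48, 5.77 and 7.55 in normal mucosa, 10.48, 11.90, 11.24 and 11.68 in inflamed mucosa and 7.62, 8.12, 8.12, 8.18 and 8.35 in tumour. The tumours lay just above normal mucosa 6 and far below the inflamed arrays. Des was 27.2-fold higher in inflamed and 2.86-fold higher in tumour than in normal mucosa (limma, adjusted p = 1.11e-06 and 0.0027). Its fall from inflamed mucosa to tumour was the fifth largest of all 19938 genes, at -3.25 ± 0.32 or 9.50-fold (limma, adjusted p = 8.21e-05). Synm (synemin), which copolymerises with desmin, was 4.35-fold higher in inflamed mucosa and 3.82-fold lower in tumour than there (limma, adjusted p = 2.54e-05 and 0.000192). In tumour Synm differed from normal mucosa by 0.19 ± 0.22 (limma, adjusted p = 0.509).

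Pgm5 and Synpo2, proteins of dense plaques and of actin bundles, were high in inflamed mucosa and lower in tumour, as desmin was. Pgm5 read 6.13, 5.80, 5.53 and 7.01 in normal mucosa, 9.92, 11.38, 10.62 and 10.79 in inflamed mucosa and 7.51, 7.63, 7.80, 7.63 and 7.33 in tumour. It was 23.6-fold and 2.75-fold higher than in normal mucosa, and 8.56-fold lower in tumour than in inflamed mucosa (limma, adjusted p = 8.2e-07, 0.00164 and 4.9e-05). Synpo2 was 9.25-fold higher in inflamed mucosa and 6.29-fold lower in tumour than there (limma, adjusted p = 2.29e-06 and 3.92e-05). In tumour Synpo2 lay 0.55 ± 0.24 above normal mucosa without passing (limma, adjusted p = 0.0861), although the groups did not overlap. It passed without inflamed mucosa 1 (limma, adjusted p = 0.00789) and with the tumour and normal arrays alone (0.00397). Pdlim3, a PDZ-LIM protein that binds α-actinin, was 12.4-fold and 2.89-fold higher than in normal mucosa and 4.29-fold lower between tumour and inflamed mucosa (limma, adjusted p = 1.98e-06, 0.000692 and 0.000452).

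Flna, Csrp1 and Pdlim7 differed by less than 1 log2 unit between tumour and inflamed mucosa. Flna, the actin crosslinker filamin A, read 8.52, 6.82, 7.05 and 8.43 in normal mucosa, 10.91, 11.76, 11.54 and 11.26 in inflamed mucosa and 10.22, 10.48, 10.44, 10.47 and 10.63 in tumour. It was 12.6-fold and 6.69-fold higher than in normal mucosa (limma, adjusted p = 5.33e-06 and 2.16e-05). Tumour lay 0.92 ± 0.31 below inflamed mucosa with no overlap but did not pass (limma, adjusted p = 0.103). It passed in the fit on those groups alone and with array weights (limma, adjusted p = 0.00584 and 0.0366). The LIM protein Csrp1 was 5.15-fold and 2.77-fold higher, and 1.86-fold lower in tumour than in inflamed mucosa (limma, adjusted p = 3.18e-06, 5.81e-05 and 0.0113). Pdlim7 (enigma, another PDZ-LIM protein) read 7.46, 7.61, 7.20 and 7.45 in normal mucosa, 8.10, 8.71, 8.25 and 8.53 in inflamed mucosa and 8.72, 8.42, 8.55, 9.02 and 8.98 in tumour. It was the 1 member whose mean was higher in tumour than in inflamed mucosa, by 0.34 ± 0.15, which did not pass (limma, adjusted p = 0.223). Against normal mucosa Pdlim7 was 1.95-fold higher in inflamed mucosa and 2.47-fold higher in tumour (limma, adjusted p = 0.000639 and 2.2e-05).

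Fhl1, a LIM-domain protein of muscle and other cells, was the 1 member that went down in both comparisons with normal mucosa. It read 12.06, 12.37, 12.23 and 11.85 in normal mucosa, 11.33, 11.56, 11.44 and 11.70 in inflamed mucosa and 10.51, 10.56, 10.70, 10.53 and 10.67 in tumour. The 3 groups formed steps without overlap, from a normal level that was the highest mean of any member there. Fhl1 fell by 0.62 ± 0.11 in inflamed mucosa and by 1.53 ± 0.11 in tumour against normal mucosa (limma, adjusted p = 0.0015 and 3.17e-07). Between inflamed mucosa and tumour it fell by 0.91 ± 0.11 (limma, adjusted p = 0.000241). Levels of different genes come from different probes, so the rank of its level is not a rank of abundance.

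Nexn and Ldb3 were dim or changed little. Nexn (nexilin, an actin-binding protein) had a normal mean of 4.81 and a tumour mean of 5.16, both at the absent level, and 5.69 in inflamed mucosa (1.84-fold higher, limma, adjusted p = 0.00115). Its fall of 0.53 in tumour against inflamed mucosa (limma, adjusted p = 0.0481) ended when any 1 of 10 arrays was left out, with adjusted p between 0.0588 and 0.167 in limma, the highest without inflamed mucosa 2. It also ended with the tumour and inflamed arrays alone (0.0753), median centring (0.0715), cyclic loess (0.0981), sex as a covariate (0.0513) and the replicate block (0.0618). Its tumour difference of 0.36 from normal mucosa (limma, adjusted p = 0.0741) passed without inflamed mucosa 1 (0.0461) and with cyclic loess (0.0362). Ldb3, a PDZ-LIM protein best known from striated muscle, differed by 0.16 ± 0.12 in inflamed mucosa (limma, adjusted p = 0.307) and by -0.29 ± 0.11 in tumour (limma, adjusted p = 0.0543) from normal mucosa. The tumour difference of Ldb3 passed without adenocarcinoma 1, normal mucosa 4 or normal mucosa 6 (limma, adjusted p = 0.0315, 0.022 and 0.0416), and with median centring (0.0424). Ldb3 fell by 0.45 ± 0.11 from inflamed mucosa to tumour (limma, adjusted p = 0.0252). That call ended without adenocarcinoma 2, 4 or 6 or inflamed mucosa 2, 3 or 4 (limma, adjusted p between 0.054 and 0.0826) and with the replicate block (0.0633).

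The membrane anchors were higher in inflamed mucosa in all 5 genes, but in adenocarcinoma only Cav1 and Aoc3 passed against normal mucosa. Cav1, the coat protein of caveolae in muscle and endothelium, read 6.35, 6.41, 6.01 and 7.87 in normal mucosa, 9.66, 10.52, 9.84 and 10.55 in inflamed mucosa and 9.01, 9.24, 9.08, 9.44 and 9.33 in tumour. It was 11.2-fold and 5.90-fold higher than in normal mucosa (limma, adjusted p = 6.66e-06 and 3.23e-05). Tumour lay 0.92 ± 0.31 below inflamed mucosa (limma, adjusted p = 0.0932), a difference that passed without normal mucosa 6 (0.00871) and with the replicate block (0.0406). It also passed with the tumour and inflamed arrays alone, age as a covariate or array weights (limma, adjusted p = 0.0143, 0.0445 and 0.0382). Aoc3, an amine oxidase on the surface of smooth muscle and vessels, was 4.59-fold and 1.63-fold higher than in normal mucosa (limma, adjusted p = 7.06e-06 and 0.0134). Aoc3 was 2.81-fold lower in tumour than in inflamed mucosa (limma, adjusted p = 0.000524).

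The integrin subunit Itga8, dystrophin (Dmd) and δ-sarcoglycan (Sgcd), which tie the cytoskeleton to the matrix, were higher in inflamed mucosa and not called in tumour against normal mucosa. Itga8 read 5.65, 5.73, 6.0 and 6.16 in normal mucosa, 7.23, 8.37, 7.54 and 7.61 in inflamed mucosa and 5.92, 5.79, 6.14, 5.98 and 5.81 in tumour. The tumour arrays fell inside the range of the normal ones. Inflamed mucosa was 3.49-fold higher in Itga8, 2.36-fold in Dmd and 3.67-fold in Sgcd than normal mucosa (limma, adjusted p = 2.15e-05, 6.44e-05 and 3.08e-05). Tumour was 3.40-fold, 2.23-fold and 2.95-fold lower than inflamed mucosa (limma, adjusted p = 0.000107, 0.000354 and 0.000452). Against normal mucosa the tumour differences were 0.04 ± 0.19, 0.08 ± 0.14 and 0.32 ± 0.20, and none of these passed (limma, adjusted p = 0.873, 0.663 and 0.222), except Sgcd with tumour and normal arrays alone (limma, adjusted p = 0.0325). The normal mean of Sgcd, 5.35, was at the absent level, so its fold is a difference from background.

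Genes of excitation and calcium handling were higher in inflamed mucosa in all 7 cases. Only Kcnmb1 and Cacna1c of the 7 passed in adenocarcinoma against normal mucosa. Chrm2, the muscarinic receptor that prevails in number on gut muscle, read 5.47, 6.0, 5.51 and 6.31 in normal mucosa, 8.6, 10.31, 9.26 and 9.23 in inflamed mucosa and 5.79, 6.19, 6.50, 6.15 and 6.23 in tumour. The tumour and normal arrays overlapped, and the inflamed arrays stood clear of both. Chrm2 was 11.6-fold higher in inflamed than in normal mucosa and 9.07-fold lower in tumour than in inflamed mucosa (limma, adjusted p = 2.87e-06 and 2.75e-05). Tumour differed from normal mucosa by 0.35 ± 0.28 (limma, adjusted p = 0.324). Chrm3, the muscarinic receptor that drives contraction, was 1.80-fold higher in inflamed than in normal mucosa and 1.64-fold lower in tumour than in inflamed mucosa (limma, adjusted p = 0.00111 and 0.00801).

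Kcnmb1, the muscle-specific regulatory subunit of the large calcium-activated potassium channel, read 4.87, 5.44, 5.16 and 5.88 in normal mucosa. It read 7.39, 8.89, 7.99 and 9.44 in inflamed mucosa and 6.71, 6.76, 6.85, 7.53 and 6.79 in tumour. Adenocarcinoma 4 lay above the lowest inflamed array, and the normal mean was at the absent level. Kcnmb1 was 8.53-fold and 3.01-fold higher than in normal mucosa (limma, adjusted p = 4.5e-05 and 0.00304). Its 2.83-fold fall between inflamed mucosa and tumour (limma, adjusted p = 0.0176) missed the threshold without inflamed mucosa 2 or 4 (limma, adjusted p = 0.0688 and 0.0529). Cacna1c, the pore of the L-type calcium channel, was 2.51-fold and 1.46-fold higher and 1.72-fold lower between the tissues (limma, adjusted p = 8.64e-05, 0.0177 and 0.0094). The tumour rise of Cacna1c missed the threshold without normal mucosa 2 (limma, adjusted p = 0.0521).

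The calcium store proteins were dim. Casq2 (calsequestrin) and Pln (phospholamban, the brake on the store's calcium pump) had means at the absent level in normal mucosa (5.06 and 5.03) and in tumour (4.92 and 5.00). In inflamed mucosa Casq2 read 5.23, 5.80, 6.18 and 6.69 and Pln 5.57, 7.18, 5.89 and 7.36, and in both genes inflamed mucosa 1 was the lowest. They were 1.89-fold and 2.77-fold higher than in normal mucosa (limma, adjusted p = 0.00789 and 0.00428) and 2.09-fold and 2.83-fold lower in tumour than in inflamed mucosa (limma, adjusted p = 0.00723 and 0.00811). Jph2, the junctophilin that couples store and surface membrane, was 1.44-fold higher in inflamed mucosa with overlapping arrays (limma, adjusted p = 0.0241). That call ended without inflamed mucosa 2 or 4 or normal mucosa 1 or 4 (limma, adjusted p = 0.0767, 0.0556, 0.0565 and 0.0614), and with the inflamed and normal arrays alone (0.0582). In tumour Jph2 was 0.44 ± 0.15 below inflamed mucosa (limma, adjusted p = 0.0938). That difference passed without inflamed mucosa 1 (0.0426) and with the replicate block (0.0463).

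Myocd, the coactivator at the head of the program, was higher in both tissues than in normal mucosa. It read 6.37, 5.98, 6.17 and 6.36 in normal mucosa, 7.27, 8.34, 8.01 and 8.16 in inflamed mucosa and 6.71, 6.6, 6.94, 7.22 and 6.70 in tumour. The 3 groups did not overlap. Myocd was 3.31-fold higher in inflamed mucosa and 2.16-fold lower in tumour than there (limma, adjusted p = 4.17e-05 and 0.00311). Its tumour rise over normal mucosa was 1.53-fold (limma, adjusted p = 0.0241). That rise missed the threshold without adenocarcinoma 3 or 4 or normal mucosa 2 (limma, adjusted p = 0.0501, 0.0589 and 0.0791), and with array weights (0.0695).

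**Figure D3:**
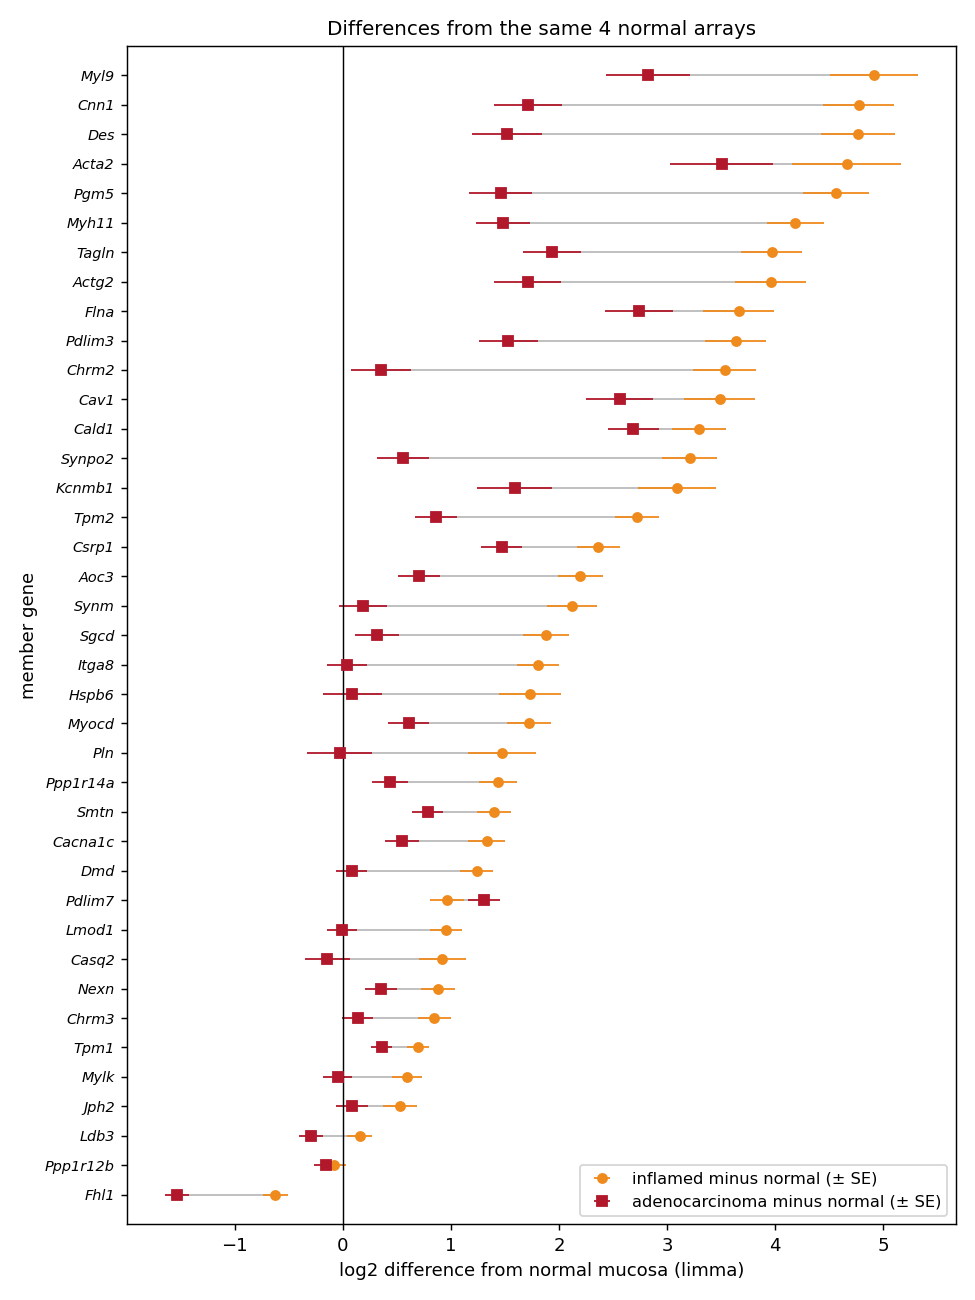
Difference from normal mucosa (log2, limma, ± SE) of inflamed mucosa (orange circles) and adenocarcinoma (red squares) for each of the 39 members, ordered by the inflamed value. The grey line joining the pair is long for Cnn1, Des, Pgm5, Myh11 and Chrm2, short for Cald1, Flna and Cav1, and Pdlim7 is the 1 gene whose square lies to the right of its circle.

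To set out how unequally the members were lowered, each was taken relative to Acta2: on each array the log2 value of Acta2 was subtracted from that of the other 38. These are described without a test, since the choice of reference decides which members lie above and below it and the members' falls were known. In tumour against inflamed mucosa 19 members were below 0 and 19 above 0, with a median of 0.02, so Acta2 stood in the middle of the members. The tumour arrays lay wholly below the inflamed arrays in 13 members and wholly above them in 11, and overlapped in 14. The difference of Acta2 itself was -1.16, so a gene of equal level in both tissues comes out above it. The share of all genes lying wholly above or below was not counted. At the low end were Des (-2.09), Chrm2 (-2.02), Pgm5 (-1.94), Cnn1 (-1.90), Myh11 (-1.55), Synpo2 (-1.50) and Actg2 (-1.09). At the high end were Pdlim7 (1.5), Ppp1r12b (1.08), Tpm1 (0.82), Jph2 (0.71), Ldb3 (0.71), Nexn (0.63) and Cald1 (0.55). The low end holds proteins of mature visceral muscle, but other genes of the contractile program lay on the other side. Smtn (0.54), Mylk (0.51) and Chrm3 (0.45) were wholly above the inflamed arrays, and Lmod1 (0.19) and Myocd (0.04) overlapped with them. The high end holds several genes whose own level differed little between the tissues.

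In inflamed against normal mucosa 35 of the 38 members were below 0 (median -2.82), and 37 without normal mucosa 6 (median -3.46). The inflamed arrays lay wholly below the normal ones in 23 and 34 members. In tumour against normal mucosa all 38 were below 0 (median -2.95, and -3.62 without that array). Acta2 itself rose by 4.66 and 3.5, so a smaller rise comes out below 0. For several members near Acta2 the values depended on normal mucosa 6, where Acta2 was at 10.03. The difference relative to Acta2 was -0.70 for Actg2, -0.69 for Tagln and -0.47 for Myh11 with all arrays, and the groups overlapped. Without normal mucosa 6 it was -1.12, -1.13 and -0.92, and the inflamed arrays lay wholly below the normal ones. For Des it was 0.11 with all arrays and -0.30 without that array, and for Cnn1 0.11 and -0.27, with overlap either way. Synm stood at -2.54 and, without that array, at -3.23. Such a ratio shows unequal change of a pair of genes and not that either one stayed constant.

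**Figure D4:**
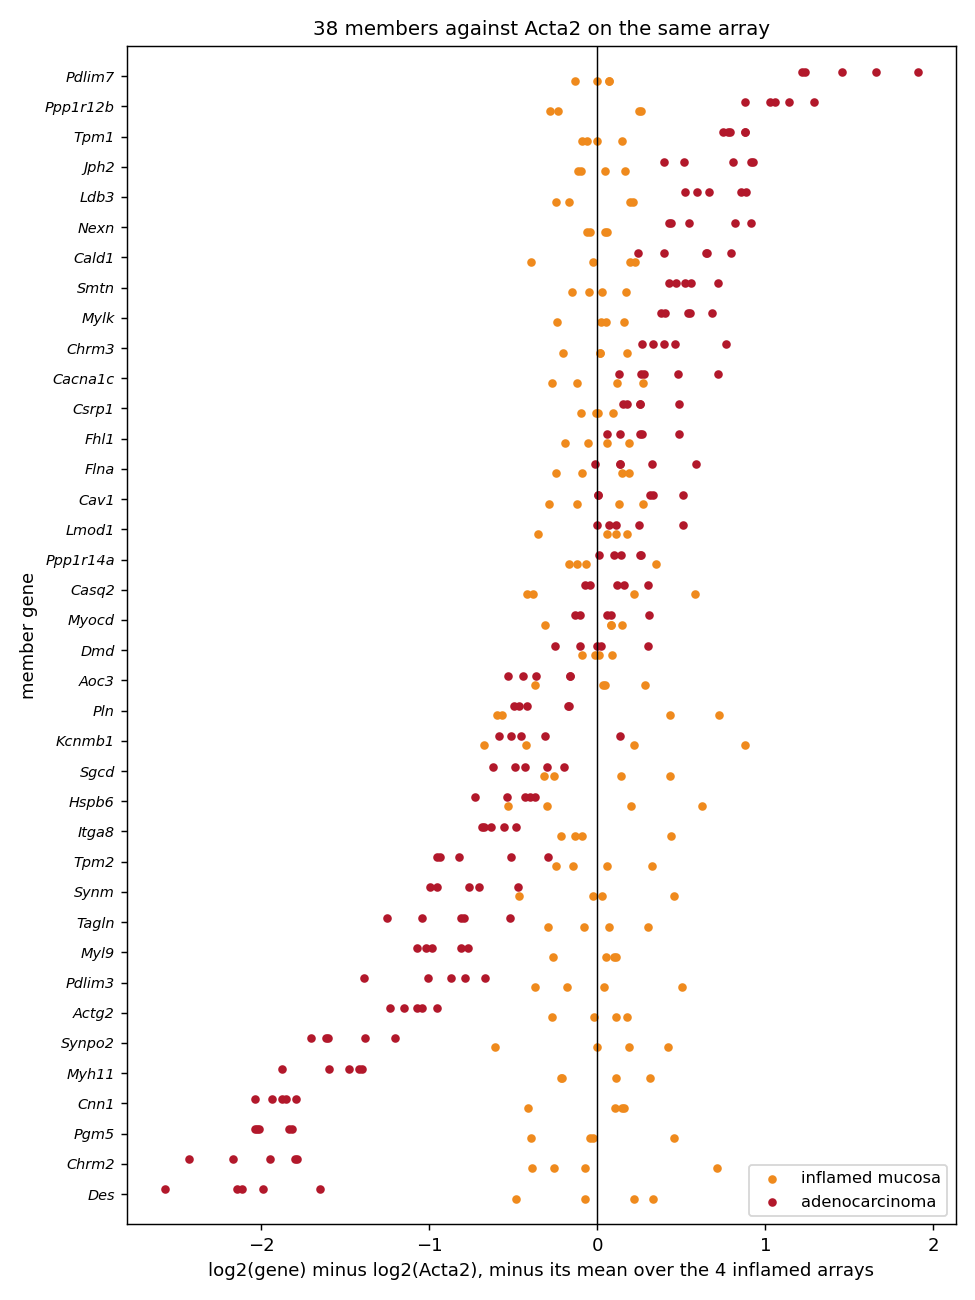
Log2 value of each of the other 38 members minus that of Acta2 on the same array, less the mean of that difference over the 4 inflamed arrays (horizontal axis), for the 4 inflamed (orange) and 5 tumour arrays (red), with genes ordered by the tumour mean. The tumour points run from left of the inflamed ones at the bottom (Des, mean -2.09) to right of them at the top (Pdlim7, mean 1.5), with 19 tumour means below 0 and 19 above.

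Other genes of the contraction pathway were counted from fixed lists in the same fit. Beside these counts, 13.7% of all genes were called higher and 13% lower in inflamed than in normal mucosa. In adenocarcinoma against normal mucosa these shares were 16.4% and 19.4%. Whether a list's counts depart from such shares was not tested. Of 26 genes of attachment plaques and the dystrophin complex, 20 were higher and 0 lower in inflamed mucosa (3 of the other 6 below 0, by at most 0.09), with Tns1 (10.2-fold) and the integrin adaptor Fermt2 (8.18-fold) above Svil (4.47-fold) and Sgcb (3.07-fold) among the 4 with the smallest adjusted p. In adenocarcinoma 18 were higher than in normal mucosa. The list's median difference was 1.15 in inflamed mucosa and 0.60 in tumour. Against inflamed mucosa 7 were lower in tumour, among them Dtna (α-dystrobrevin, 3.17-fold) and Tns1 (2.87-fold). Fermt2, Itga1 and Itgb1 differed between these tissues by -0.44, -0.05 and 0.13 (limma, adjusted p = 0.178, 0.953 and 0.551).

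The nitric oxide and cyclic GMP pathway, which relaxes the muscle, had 5 of 7 genes higher in inflamed mucosa and a median difference of 1.23. They were both subunits of soluble guanylate cyclase (Gucy1a1, 2.49-fold, and Gucy1b1, 3.11-fold), the kinase Prkg1 (2.36-fold), its partner Mrvi1 (2.35-fold) and the phosphodiesterase Pde5a (1.76-fold). In tumour 3 of 7 were lower than in inflamed mucosa: Mrvi1 (2.00-fold), Prkg1 (2.12-fold) and Gucy1a1 (1.72-fold). Among 12 genes of calcium stores and channels 4 were higher and 3 lower in inflamed mucosa. Kcnma1, the pore partner of Kcnmb1, was 2.10-fold higher there, 0.03 ± 0.11 from normal mucosa in tumour and 2.05-fold lower in tumour than in inflamed mucosa (limma, adjusted p = 2.12e-05, 0.828 and 0.000107). The channel subunit Cacna2d1 was 5.15-fold and 3.32-fold higher than in normal mucosa (limma, adjusted p = 3.18e-06 and 1.45e-05).

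Receptors that act on gut muscle were split. Of 10 measured, 5 were higher and 1 lower in inflamed mucosa. The tachykinin receptor Tacr2 was 4.98-fold higher there and 7.07-fold lower in tumour than in inflamed mucosa (limma, adjusted p = 2.24e-05 and 2.01e-05), and -0.50 ± 0.24 from normal mucosa in tumour (limma, adjusted p = 0.11). The endothelin receptor Ednrb, by contrast, was 3.06-fold and 3.51-fold higher than in normal mucosa (limma, adjusted p = 0.000157 and 2.33e-05). The prostaglandin receptor Ptger3 was 1.91-fold and 2.72-fold lower (limma, adjusted p = 0.0223 and 0.000768).

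SRF itself and the MRTF cofactors were not called in inflamed mucosa. Srf differed by -0.08 ± 0.12 in inflamed mucosa and by -0.14 ± 0.12 in tumour from normal mucosa (limma, adjusted p = 0.641 and 0.353). Its cofactors Mrtfa and Mrtfb differed by -0.24 and 0.18 in inflamed mucosa (limma, adjusted p = 0.154 and 0.466), and Mrtfa by -0.33 in tumour (limma, adjusted p = 0.0454). Of the 13 genes listed with SRF 4 were higher and 3 lower in inflamed mucosa (median difference 0.03), and 5 were higher and 5 lower in tumour (median -0.14), against normal mucosa. The 4 higher in inflamed mucosa were the gut muscle regulators Foxf1 (6.76-fold) and Foxf2 (2.69-fold), the coactivator Tgfb1i1 (4.81-fold) and Mef2c (2.70-fold). Klf4, a repressor of muscle genes that epithelium also makes, was 1.5-fold and 2.23-fold lower (limma, adjusted p = 0.00161 and 2.39e-06).

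Non-muscle and striated counterparts of the members went both ways. Of 34 measured, 9 were higher and 6 lower in inflamed mucosa, with a median difference of -0.05. In tumour 10 were higher and 8 lower. Of all genes 13.7% were higher and 13% lower in inflamed mucosa, and 16.4% and 19.4% in tumour. Whether the counterparts depart from these shares was not tested. Cytoplasmic β-actin (Actb) differed by -0.01 ± 0.06 and 0.05 ± 0.06 from normal mucosa (limma, adjusted p = 0.949 and 0.481). The striated filamin Flnc was 4.38-fold and 1.95-fold higher, and 2.24-fold lower in tumour than in inflamed mucosa (limma, adjusted p = 8.2e-07, 0.000111 and 0.000192). Vim, the intermediate filament of mesenchymal cells, was 5.09-fold and 4.94-fold higher (limma, adjusted p = 8.65e-05 and 4.05e-05) and -0.04 ± 0.28 between tumour and inflamed mucosa. Non-muscle myosin Myh9 was higher in tumour than in inflamed mucosa, by 1.32-fold (limma, adjusted p = 0.0107).

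Markers of other cells are given beside the members, and their part in the members' differences was not tested. Most fibroblast and myofibroblast markers were higher in both comparisons with normal mucosa, as many members were. Between tumour and inflamed mucosa the median difference was -0.33 for fibroblast and 7.3e-05 for myofibroblast markers, against -1.16 for the members. All 10 fibroblast markers were higher in inflamed mucosa and 8 in tumour. The mean of that list was 6.55 to 7.67 in normal mucosa, with normal mucosa 6 the highest, 8.83 to 9.44 in inflamed mucosa and 8.70 to 9.17 in tumour. Between tumour and inflamed mucosa 3 of the 10 were higher (Col1a1, Col1a2 and Col3a1) and 3 lower (Lum, Mfap5 and Pi16). Of 10 myofibroblast markers 6 were higher in both comparisons with normal mucosa, and 3 (Inhba, Lox and Tnc) were higher in tumour than in inflamed mucosa, with 0 lower. That list's mean was 5.90 to 6.93 in normal mucosa, again highest in normal mucosa 6, 7.98 to 8.22 in inflamed mucosa and 8.36 to 8.61 in tumour. Its members Fap and, in normal mucosa, Lox and Cthrc1 were at the absent level.

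Vessel markers rose in both tissues. All 9 endothelial markers were higher in inflamed mucosa and in tumour than in normal mucosa, with list means of 5.89 to 6.48, 7.87 to 8.43 and 8.14 to 8.51 in normal, inflamed and tumour arrays. Of 9 pericyte markers 6 were higher in inflamed mucosa and 7 in tumour, with means of 6.47 to 6.73, 7.69 to 8.25 and 7.68 to 7.97, and Higd1b at the absent level in all groups. Rgs5, a pericyte marker, was 16.5-fold and 9.40-fold higher than in normal mucosa (limma, adjusted p = 2.35e-06 and 4.27e-06). Between tumour and inflamed mucosa 2 endothelial markers were higher and 0 lower in tumour, and 1 pericyte marker was higher and 1 lower. These calls made up 2.91% (higher) and 4.21% (lower) of all genes. The median differences were 0.04 for endothelial and 0.03 for pericyte markers, against -1.16 for the members.

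Markers of nerve and pacemaker cells, which accompany gut muscle, were mixed. Of 10 markers of enteric neurons and glia 5 were higher in inflamed mucosa and 5 were lower, and 1 higher, in tumour than in inflamed mucosa. The list's mean was 5.78 to 6.06 in normal mucosa, 6.52 to 7.11 in inflamed mucosa and 6.02 to 6.26 in tumour, and Elavl4, Chat and S100b were at the absent level in every group. The neuropeptide Vip was 10.1-fold higher in inflamed mucosa and 9.66-fold lower in tumour than there (limma, adjusted p = 2.35e-06 and 9.44e-06), from means at the absent level in normal mucosa and tumour. Of 5 markers of interstitial cells of Cajal, the pacemaker cells of gut muscle, Etv1 and Kit were higher and Ano1 lower in inflamed mucosa, and 3 (Kit, Etv1 and Prkcq) were lower in tumour than in inflamed mucosa. Their list mean was 8.77 to 8.86, 9.08 to 9.44 and 8.54 to 8.93 in normal, inflamed and tumour arrays.

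Skeletal muscle markers, checked because the anal sphincter lies close to the rectum, were mostly not higher. Of 17 markers 1 (Ckm, 1.58-fold, limma, adjusted p = 0.00555) was higher and 5 were lower in inflamed mucosa, and 0 were higher and 9 lower in tumour, where 0 of the 17 were higher at an unadjusted p below 0.05. Of all genes 13.7% were higher and 13% lower in inflamed mucosa, and 16.4% and 19.4% in tumour. The skeletal muscle list's mean was highest in normal mucosa, at 6.11 to 6.48. It was 5.97 to 6.05 in inflamed mucosa and 5.82 to 6.03 in tumour. Myh1, Mylpf, Myog and Xirp2 were at the absent level in every group. With cyclic loess scaling of the arrays 2 were lower in inflamed mucosa and 3 in tumour. Of 10 epithelial markers 3 (Cdh1, Cldn7 and Vil1) were lower in inflamed mucosa by at most 1.29-fold, and 1 with cyclic loess scaling. Their mean stayed between 11.79 and 12.04 on all arrays, so epithelium was present in each group. These markers do not show whether a piece also held some of the muscle coat.

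**Figure D5:**
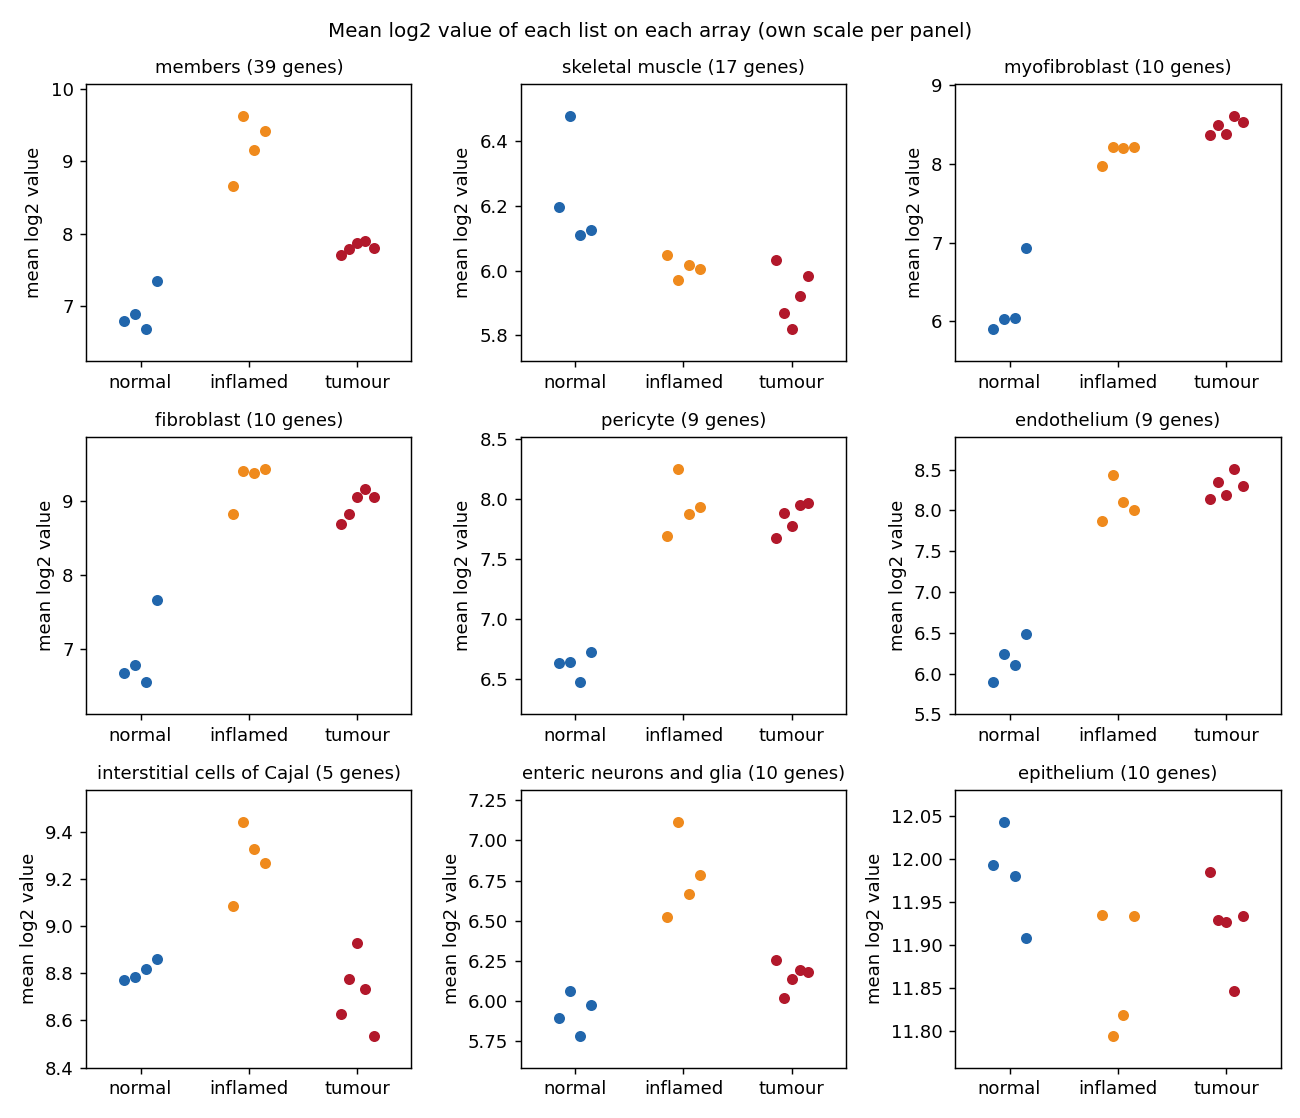
Mean log2 value of the 39 members and of 8 marker lists on each array (points; normal, inflamed and tumour groups; each panel has its own scale). The members and the lists of enteric neurons and interstitial cells of Cajal are highest in inflamed mucosa, the myofibroblast list is highest in tumour, and the skeletal muscle list is highest in normal mucosa.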

How the data were processed

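RNA of 13 rectal samples was measured on Affymetrix Mouse Gene 1.0 ST arrays. The deposited table holds log2 values that the authors made by RMA (background correction, quantile normalization and probe summary) in Expression Console version 1.1 from scans read with Command Console version 2.0, per the series' design text. Partek is named without a role in the submitters' processing notes, and the authors' annotation build was not given in the sources used here. RMA compresses differences of dim genes, and quantile normalization removes differences in total RNA. Precision is limited by the number of arrays.

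Of 35556 transcript clusters 21789 name 1 gene, 1621 name several and 12146 are unnamed here. Each of 19938 genes was read from the cluster with the highest mean over the 13 arrays. Groups were compared in 1 limma fit (limma 3.58.1, R 4.3.3) over all arrays, with moderated variances, no covariate and Benjamini-Hochberg adjustment over all genes, and a call is an adjusted p below 0.05. Fold changes are 2 raised to the log2 difference. Values relative to Acta2 are described without a test, although a permutation test on 6 genes had been planned, since those genes were chosen with their falls known. The members and all lists were chosen with earlier results of these data known. All members are reported. From other lists, named genes are those with the smallest adjusted p in a direction (up to 4 a comparison) and the defining genes, called or not. The result of 1 list is not reported here. Promoters are those of RefSeq on GRCm38.p6, matched by symbol.

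The fit was tested on simulated data with known changes before use. Of genes changed by 0.5 (log2) it recovered 41.8% for inflamed against normal, 46.3% for tumour against normal and 58.2% for tumour against inflamed mucosa. For a change of 1 these shares were 88.1%, 89.6% and 91.0%. The simulated noise had the same spread in each group, which the real arrays do not: the SD of Acta2 was 0.12 in tumour, 0.27 in inflamed and 1.48 in normal mucosa. A gene that was not called may therefore still differ by 0.5 or by more. Acta2, for 1, differed by -1.16 between tumour and inflamed mucosa without a call.

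Tumour and inflamed arrays of the same number have the same sex and age in the labels, and after subtraction of group means they correlated at 0.387, 0.319, 0.199 and 0.198, so the number was taken to pair them. Normal arrays and same-numbered arrays of the other groups correlated at only -0.126 to 0.0413. The replicate block nevertheless grouped all arrays by number, normal ones included, among them normal mucosa 6 (70 weeks) with adenocarcinoma 6 (80 weeks). The alternatives were a fixed or random replicate block, sex or age as a covariate, array weights, only the groups compared, median centring, cyclic loess, leaving out the dimmest genes, a 2-fold minimum and leaving out each array.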

Additional observations from a re-analysis of the deposited data

Results flagged for a closer look

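In 9 of 117 sets of arrays (39 members in each of 3 groups), 1 array lay further from its group than Dixon's 95% limit allows; chance alone does so in about 1 of 20 sets. In normal mucosa 6, Acta2 read 10.03 (the nearest normal array 7.26), Myh11 7.93 (6.86) and Sgcd 5.62 (5.27). The means of the fibroblast and myofibroblast lists were also highest on that array among the normal ones. Not every marker in them was: Inhba read 6.10 there and 6.11, 6.35 and 6.18 on normal mucosa 1, 2 and 4. In normal mucosa 1, Hspb6 read 7.08 (7.64).

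In adenocarcinoma 6, from the oldest animal, Mylk read 8.30 (the nearest tumour array 8.61) and Hspb6 7.20 (7.64). Kcnmb1 read 7.53 in adenocarcinoma 4 (6.85), and Ldb3 6.70 in adenocarcinoma 1 (6.48). In inflamed mucosa, Smtn read 9.14 in inflamed mucosa 1 (9.56), the array that was lowest in 38 of the 39 members.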

How the results depend on the processing

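Under 10 settings other than a 2-fold minimum the members called were 33 to 36 higher in inflamed mucosa, 20 to 24 higher in adenocarcinoma against normal mucosa, and 29 to 34 lower in adenocarcinoma against inflamed mucosa, with 0 higher in each. Leaving out each array gave 35 to 36, 19 to 24 and 27 to 34. Leaving out the dimmest genes removed Nexn, Casq2 and Pln from the test. With the fixed replicate block, which groups tumour, inflamed and normal arrays by number, 31 members were lower in tumour than in inflamed mucosa. Of these, 29 were called without the block: Ldb3 and Nexn were lost and Cav1 and Jph2 gained.

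Members lower in adenocarcinoma against normal mucosa numbered 2 with arrays centred on their medians (Fhl1 and Ldb3) and 1 to 2 when arrays were left out. With a 2-fold minimum 28 members were higher and 0 lower in inflamed mucosa, 15 higher in adenocarcinoma against normal mucosa and 21 lower against inflamed mucosa. Over all genes the 2-fold minimum gave 875 higher and 212 lower in inflamed mucosa, 864 and 525 in adenocarcinoma against normal mucosa, and 140 and 269 in adenocarcinoma against inflamed mucosa, in place of 2730 and 2592, 3266 and 3867, and 581 and 839. Array weights gave 981 higher and 1315 lower in the last comparison. Leaving out 1 array gave 1391 to 3024 genes lower in inflamed mucosa, 2543 to 4374 lower in adenocarcinoma against normal mucosa, and 302 to 662 higher and 473 to 990 lower in adenocarcinoma against inflamed mucosa. The cause of these shifts was not tested.

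No called difference of a member changed sign.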
